A study of Mus musculus with 24 samples.

Results

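The genes of platelet-derived growth factor (PDGF) signalling were followed through peak lists of mouse fibroblasts with and without the homeobox factor PRRX1. They comprise the receptors Pdgfra and Pdgfrb, the receptor-like gene Pdgfrl and the ligands Pdgfa, Pdgfb, Pdgfc and Pdgfd, 7 of the 22367 protein-coding genes of the GENCODE vM1 annotation on mm9. The genes were chosen by name, as the whole family, and each was examined over its body with 10 kb on each side. The ligands act as dimers held by disulphide bonds, and the receptors are tyrosine kinases that pair and phosphorylate each other when a ligand dimer joins them. Fibroblasts, pericytes and vascular smooth muscle cells are the classical responding cells, and Pdgfra is a widely used label of fibroblasts in mouse tissue. PDGFA and PDGFC act mainly through the alpha receptor, PDGFD through the beta receptor and PDGFB through both, and the secreted C and D chains need cleavage by a protease before they bind.

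The study deposited chromatin immunoprecipitation sequencing (ChIP-seq) of 24 samples, of which 17 have a peak list and 7 are inputs. Histone H3 acetylated at lysine 27 (H3K27ac, found at active promoters and enhancers) and trimethylated at lysine 4 (H3K4me3, found at active promoters) were mapped in 7 cell lines each, and PRRX1 itself in the 3 wild-type (WT) lines. Mouse embryonic fibroblasts (MEF) came from embryos at E10 to E13, skin wound fibroblasts from dorsal wounds at day 10, both labelled C57BL/6, and cancer-associated fibroblasts (MMTV_CAF in the labels, MMTV here) from mammary tumours of MMTV-PyMT mice, labelled FVB/NJ. Each type had a WT line and a line made with a guide RNA against Prrx1 and Cas9 (SG), with SgNS cells, named as WT in the labels, as the control. MEF had a further genotype, KI, which the labels do not spell out and which was read as the Prrx1tm1Jfm mutant (129S-Prrx1tm1Jfm/Mmmh in the protocol, although the strain label is C57BL/6). Every line, the controls included, had been immortalised with papillomavirus E6 and E7 and grown in serum, which itself contains PDGF. Whether the lines are clones is not given in the sources used here. KI and SG are together called deleted below. Each group has a single list (n = 1), so a difference describes a pair of lists, no p-value can be given, and the spread between cultures is unknown.

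The lists differed in size and strength. H3K27ac lists held 29325 (KI MEF) to 61603 (MMTV SG) summits, H3K4me3 lists 13125 (KI MEF) to 29166 regions, and PRRX1 lists 3048 (MEF), 8000 (MMTV) and 5698 (wound) summits. The median −log10 p of H3K27ac was lowest in KI MEF, at 11.9, against 15.2 to 21.2 in the other lists, whereas that of H3K4me3 was 9.93 in KI MEF and lower still in MMTV WT (7.51) and SG (8.72). An H3K4me3 region covered a transcription start site (TSS) of 9, 5 and 9 of 10 fibroblast markers in WT, KI and SG MEF, of 7 in each MMTV line and of 6 and 5 in wound WT and SG. Vim, Col1a1, Col1a2 and Acta2 were marked in all 7 lists, and Lum in none. Of 6 epithelial markers at most 1 (Cdh1) was marked in a list, of 4 endothelial markers at most 1 (Kdr), and of 4 leukocyte markers 0. Of 5 pericyte markers 1 to 3 were marked, but Rgs5 and Abcc9 had no TSS region in any list. These counts are of H3K4me3 alone, and H3K27ac was listed in the windows of several markers of other cell types. Its summed −log10 p in MMTV WT and SG was 58.3 and 164.4 at Krt8, 105.3 and 226.1 at Pecam1, and 70.4 and 76.5 at Csf1r. At Kdr it was 108.0 and 216.9 in wound WT and SG and 0 in the other lists, and at Cd68 it ran from 53.7 to 208.7 over the 7 lists. Of the pericyte markers, Rgs5 had sums of 8.72 to 100.2 and Cspg4 of 39.0 to 172.2 over the 7 lists, and Kcnj8 and Abcc9 were at 0. Epcam, Krt5 and Ptprc were at 0 in every list. The part of other cell types in the results for the family was not tested.

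The genes lie as follows in mm9. Pdgfra (ENSMUSG00000029231.9) is on the plus strand of chromosome 5 from 75548316 to 75594229, and Pdgfa (ENSMUSG00000025856.9) on the minus strand of the same chromosome from 139451968 to 139473324. Pdgfrb (ENSMUSG00000024620.5) is on the plus strand of chromosome 18 from 61204804 to 61244715. Pdgfrl (ENSMUSG00000031595.9) is on the plus strand of chromosome 8 from 42011566 to 42076139. Pdgfb (ENSMUSG00000000489.6) occupies chromosome 15 from 79826330 to 79845238, minus strand. Pdgfc (ENSMUSG00000028019.3) is on the plus strand of chromosome 3 from 80840338 to 81017962, and Pdgfd (ENSMUSG00000032006.7) on the plus strand of chromosome 9 from 6168612 to 6378843. Their windows run from 38.9 kb (Pdgfb) to 230.2 kb (Pdgfd), against a median of 35.4 kb over all genes, so the long genes Pdgfc and Pdgfd had more room for a summit. Other genes start inside some windows: Cdx1 next to Pdgfrb, Gm17247 and 6330403L08Rik at Pdgfa, Gm16000 at Pdgfc, Ddi1 in Pdgfd and Mtus1 beyond the end of Pdgfrl.

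The genes are described by 2 measures. The width of the widest H3K4me3 region over any annotated TSS is in bp, with its fold over input as the peak caller gave it. H3K27ac is the number of summits in the window and the sum of their −log10 p-values, a measure of how much acetylation was called that depends on depth. Sums of H3K27ac reached 340.0 at Pdgfra, 510.8 at Pdgfrb and 578.8 at Pdgfd, and stayed at or below 41.3 at Pdgfb and 28.4 at Pdgfrl in every list. A summit was present in 40 of the 49 combinations of gene and list. By line, 5, 6 and 4 members had a summit in WT, KI and SG MEF (61.5%, 52.3% and 62.9% of all genes), 7 and 6 in the MMTV pair (62% and 64.3%) and 6 in each wound line (58.2% and 63%). A TSS region was present for 7, 5 and 5 members in WT, KI and SG MEF (53.1%, 41.4% and 51.4% of all genes), for 6 in each MMTV line (52.4% and 52.9%) and for 7 in each wound line (54.7% and 55.2%). The members' share lies above that of all genes except for summits in SG MEF, and their windows are longer than the median window. A TSS region wider than 4 kb, the study's bound for a broad domain, was found in 12 of 49.

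**Figure D1:**
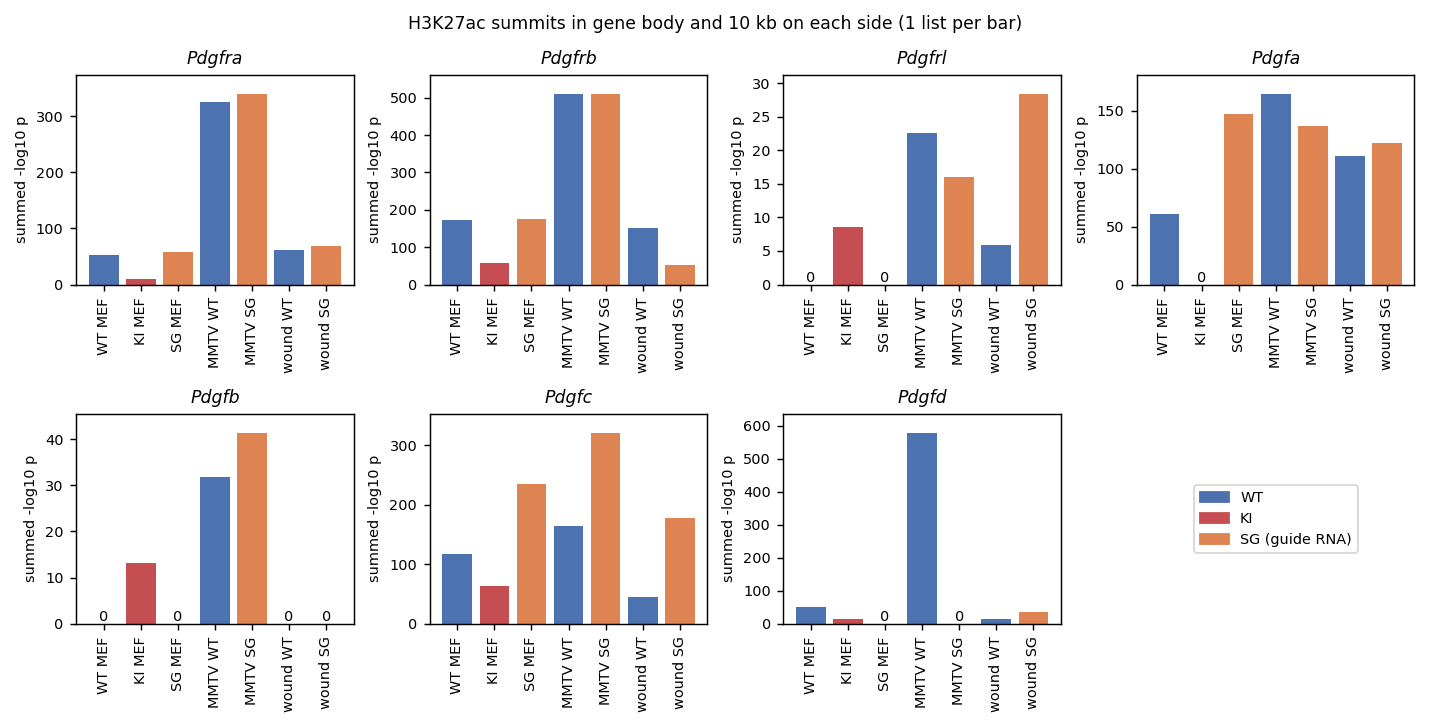
Summed −log10 p of H3K27ac summits (vertical axis, linear from 0, a scale of its own for each gene) in the body and 10-kb flanks of each gene. Each bar is 1 list, coloured by genotype, and 0 marks a gene with no summit. Every gene except Pdgfrl reached its highest sum in MMTV WT or SG. Pdgfd has no bar in SG MEF and MMTV SG, and Pdgfrb is lower in wound SG (51.4) than in wound WT (151.1).

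The alpha receptor gene Pdgfra had the widest H3K4me3 region of the family. Its TSS region spanned 5822 bp in WT MEF, 1113 bp in KI MEF and 4405 bp in SG MEF. It spanned 11742 bp in MMTV WT and 9823 bp in SG, and 4383 and 5215 bp in wound WT and SG. The region was thus over 4 kb in every list except KI MEF. In MMTV WT it was wider than 99.3% of the TSS regions of that list, and in WT MEF than 98.1%. Fold over input was 12.7 in MMTV WT and 14.9 in SG, 5.05, 2.10 and 3.94 in WT, KI and SG MEF, and 7.67 and 7.93 in the wound lines. KI MEF stands apart in both measures. There the region was split into pieces of 1380 and 1113 bp, and the 1113-bp piece alone covered a TSS.

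Pdgfra has 2 annotated starts, 75548316 and 75552191, and the 7 lists did not treat them alike. The region covered the second start in all 7 lists but the first in 4 of them (WT MEF, both MMTV lines and wound SG). In SG MEF it began 507 bp and in wound WT 485 bp downstream of the first start, and in wound SG it reached just upstream of it. The 250 bases before each start are shown because they differ in CpG dinucleotides, which are in capitals (NCBIM37, which is mm9, plus strand):
Pdgfra before the first start, chr5:75548066-75548315: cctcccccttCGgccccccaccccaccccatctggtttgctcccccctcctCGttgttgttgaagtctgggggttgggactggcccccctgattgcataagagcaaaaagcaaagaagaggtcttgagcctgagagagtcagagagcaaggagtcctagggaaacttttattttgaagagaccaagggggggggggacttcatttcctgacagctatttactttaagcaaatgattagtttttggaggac
Pdgfra before the second start, chr5:75551941-75552190: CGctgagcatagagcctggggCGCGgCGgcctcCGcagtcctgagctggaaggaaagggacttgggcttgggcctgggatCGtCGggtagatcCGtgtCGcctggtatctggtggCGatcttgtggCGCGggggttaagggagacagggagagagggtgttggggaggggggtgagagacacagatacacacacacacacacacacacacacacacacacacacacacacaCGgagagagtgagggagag
The first holds 2 CpG, an observed over expected ratio of 0.118 that exceeds 14.8% of the promoters of 22362 genes, and the second holds 13, a ratio of 0.584 that exceeds 55.4%. Neither 250-base stretch overlaps an annotated untranslated region.

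H3K27ac at Pdgfra was several times higher in MMTV than in the other types. The window held 2, 1 and 3 summits in WT, KI and SG MEF, with sums of 52.1, 9.36 and 57.6. In MMTV WT and SG it held 11 and 13 summits with sums of 325.7 and 340.0. In each wound line it held 4 summits, with sums of 62.2 and 68.9. The MMTV values lie above those of all 5 other lists, and the lines with and without PRRX1 of that type lie close together. The most widely shared element was 9.1 kb upstream of the first start, with a summit in 6 lists (every list except SG MEF) inside 51 bp. H3K4me3 lists placed a separate region of 318 to 596 bp over it in 5 lists. Its −log10 p was 25.6 in MMTV WT and 60.8 in SG, and 10.9, 9.36, 10.2 and 15.1 in WT MEF, KI MEF, wound WT and wound SG. It is shown as the element of this gene that the lists have most in common:
Pdgfra upstream site, chr5:75539132-75539332, plus strand: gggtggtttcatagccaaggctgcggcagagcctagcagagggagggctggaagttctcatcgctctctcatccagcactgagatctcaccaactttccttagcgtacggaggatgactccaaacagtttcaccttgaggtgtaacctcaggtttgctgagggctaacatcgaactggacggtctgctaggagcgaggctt

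PRRX1 summits were listed at Pdgfra in MMTV WT only. The stronger, at 75549488 in intron 1, had a −log10 p of 8.53 and ranked 2255 of 8000. It lay 1.17 kb past the first start, 349 bp from an H3K27ac summit of the same line and within the 11742-bp H3K4me3 region. The weaker, at 75566102 in intron 5, had 4.46 and ranked 7225, with the nearest H3K27ac summit 9581 bp away. The nearest PRRX1 summit to the first start was 125.6 kb away in MEF and 105.3 kb in wound WT. The bases up to 50 bp on each side are shown with TAATTA, a word bound by many homeodomain proteins, in capitals (searched on both strands, where it reads the same):
Pdgfra intron 1, chr5:75549438-75549538, plus strand: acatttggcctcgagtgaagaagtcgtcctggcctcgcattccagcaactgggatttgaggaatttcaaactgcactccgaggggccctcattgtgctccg
Pdgfra intron 5, chr5:75566052-75566152, plus strand: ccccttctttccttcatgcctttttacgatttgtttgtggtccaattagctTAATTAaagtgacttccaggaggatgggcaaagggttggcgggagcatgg
The word occurs in the weaker window and not in the stronger. It occurs within 50 bp of 25.3% of the MMTV PRRX1 summits, 57.3% of those in MEF and 31.7% of those in wound WT.

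Pdgfrb, the beta receptor gene, carried the most H3K27ac of the family per length of window in 4 lists (WT MEF, KI MEF and both MMTV lines), and Pdgfa did in the other 3. The window held 7, 5 and 6 summits in WT, KI and SG MEF, with sums of 172.2, 57.4 and 175.7. It held 18 and 19 in MMTV WT and SG, with sums of 510.8 and 508.8. It held 11 in wound WT with a sum of 151.1 and 4 in wound SG with a sum of 51.4. Per 10 kb of window this exceeded 97.6% of genes in MMTV WT, 83.7% in WT MEF and 88.4% in wound WT, but 55.4% in wound SG. The sums of WT and SG were thus near-equal in MMTV and MEF. The sum was lower in wound SG, where the median gene was higher, and in KI MEF, where the median gene was lower too. Relative to the median gene, Pdgfrb was 1.38-fold lower in SG MEF, 1.19-fold lower in MMTV SG and 1.07-fold higher in KI MEF.

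Most of the sites missing in wound SG lay in the gene body beyond the promoter. Summits of all lists within 500 bp of each other were merged into sites, which gave 28 sites at Pdgfrb. Of the 11 sites of wound WT, 3 were listed in wound SG, at 0.65, 2.57 and 26.2 kb from the first start. The share of wound WT sites listed in wound SG over all genes was not computed. The 7 sites of wound WT between 7.24 and 14.7 kb were all absent, as was 1 just upstream of the start. In wound WT each of these 7 was weak, with −log10 p of 7.57 to 13.5, below the median of that list, 15.2. In MMTV, 4 of the 7 (at 9.21, 9.93, 10.8 and 13.7 kb) had 38.2 to 44.1 in WT and 37.8 to 42.4 in SG. The site at 7.24 kb had 24.4 in MMTV WT and 8.58 in SG, and of the last 2, 1 was listed in MMTV SG alone and 1 in neither. Within 1 Mb on each side of the window the wound lists held 97 (WT) and 100 (SG) summits, or 3.82 and 3.06 times the average of the respective list. Clusters of summits stitched within 12.5 kb and ranked by summed −log10 p placed Pdgfrb 562 in wound WT, within the 779 called super-enhancers, and 8812 in wound SG. The study called super-enhancers with ROSE2, so the calls given here are an approximation and not its own.

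H3K4me3 at Pdgfrb moved in the same direction in the wound lines. Its TSS region spanned 4191 bp in wound WT and 2465 bp in wound SG, 6499 and 5210 bp in MMTV WT and SG, and 3364, 2399 and 2500 bp in WT, KI and SG MEF. It was thus over 4 kb in 3 of 7 lists. Fold over input was 6.51 in wound WT and 7.45 in wound SG, so the narrower region was not the less enriched of the pair. In wound SG a second region of 1478 bp lay shortly downstream of the first, over bases that the single 4191-bp region of wound WT largely covered. The regions in the window together covered 4467 bp in WT and 3943 bp in SG.

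Pdgfrb was the single family member with a PRRX1 summit in 2 lists, and both were at the same place. The summit lay at 61207085 in MMTV (−log10 p 15.3, rank 598) and at 61207081 in wound WT (15.0, rank 305), 4 bp apart, in intron 1, 2.23 kb from the nearest start. An H3K27ac summit lay 242 and 294 bp away in the same line, and both summits lay within the H3K4me3 region. MMTV had a further summit at 61204736 (6.30, rank 4895), 68 bp upstream of the first start. No TAATTA lay within 50 bp of these 3 summits. In the H3K27ac site next to the shared summit, at 2.57 kb, the −log10 p was 58.0 in MMTV WT and 18.5 in SG, 13.5 in wound WT and 8.06 in SG, and 16.4 in WT MEF with no summit in KI or SG MEF. It was thus lower or missing in all 4 deleted lists. This site was picked out for the PRRX1 summits beside it, with its values in view, and the other 5 sites of the family within 500 bp of a PRRX1 summit did not all share the pattern. The Pdgfrb site at 0.65 kb had 68.5, 22.7 and 80.6 in WT, KI and SG MEF, 118.7 in MMTV WT with no summit in SG, and 45.3 and 28.7 in wound WT and SG. The site at −0.51 kb was listed in KI MEF (9.27) and wound WT (12.6) alone. At Pdgfra, the site 0.76 kb from the first start had 111.9 in MMTV WT and 88.8 in SG, was absent in WT MEF and wound WT, and had 14.7 in SG MEF and 9.70 in wound SG. At Pdgfa, such a site was listed in MMTV SG alone (8.58), and at Pdgfd one 205.4 kb from the start was listed in MMTV WT alone (38.2), inside a stretch of chromosome 9 described with that gene. In MMTV SG the Pdgfrb promoter, without its 0.65-kb summit, had summits at −1.12 kb (48.3) and 1.45 kb (71.2).

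**Figure D2:**
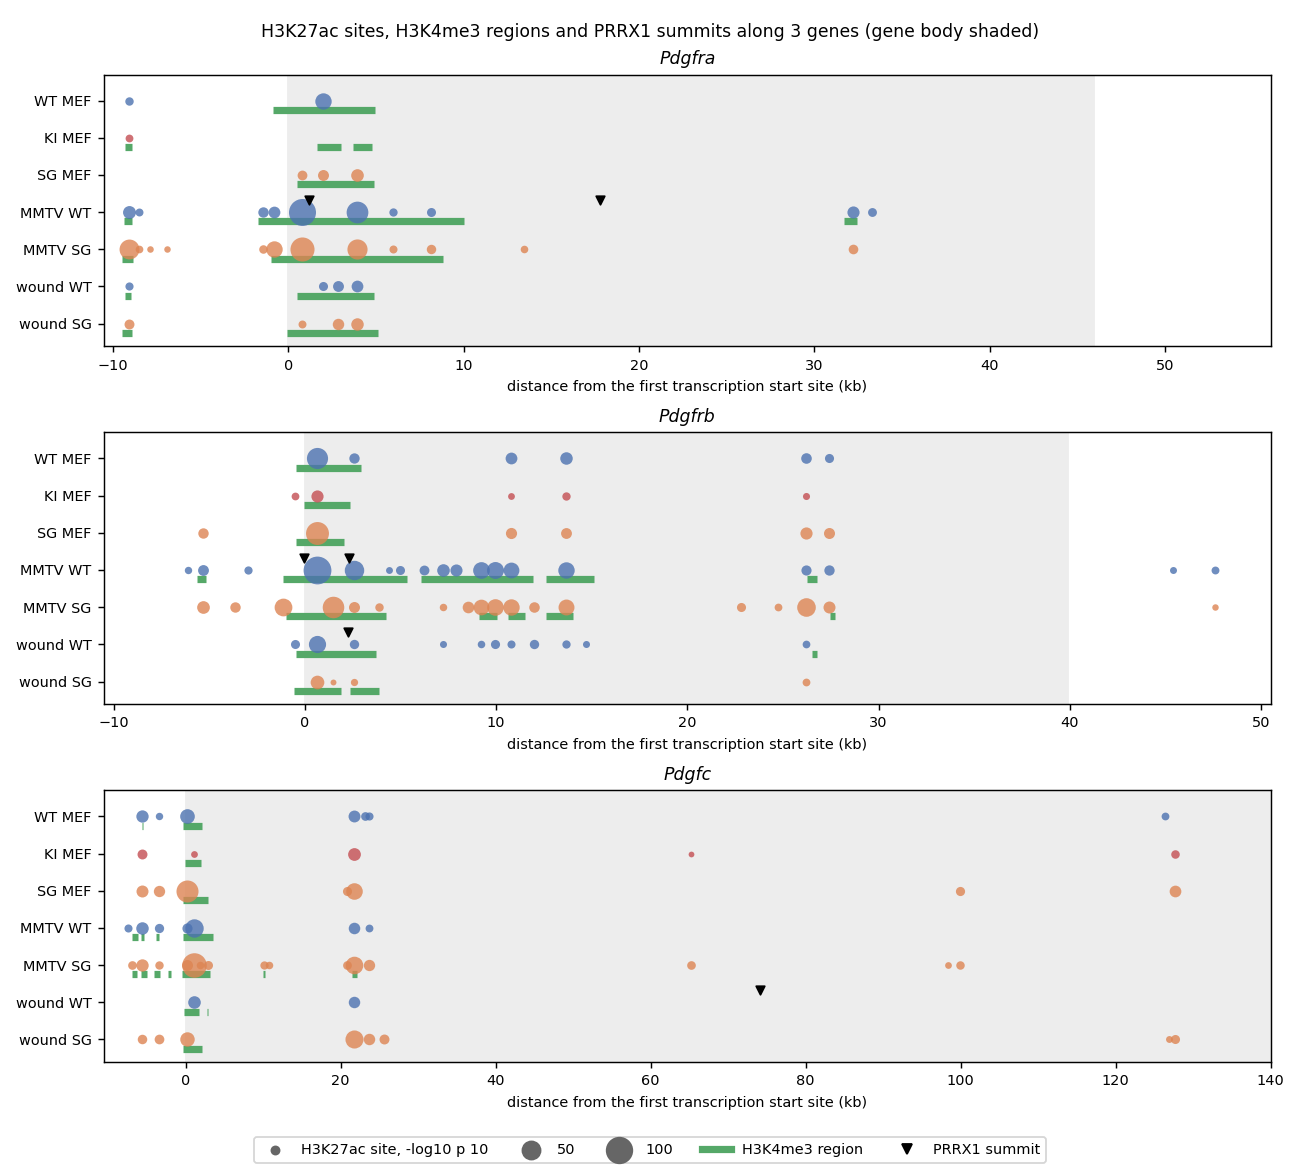
Positions along Pdgfra, Pdgfrb and Pdgfc in kb from the first TSS (horizontal axis), 1 row per line. Circles are merged H3K27ac sites with area proportional to −log10 p, green bars H3K4me3 regions, black triangles PRRX1 summits and grey the gene body. The row of wound SG at Pdgfrb holds no circle between 2.57 and 26.2 kb, and the circle near 21.8 kb of Pdgfc is present in all 7 rows.

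Pdgfrl encodes a secreted protein that resembles the outer part of the receptors and has no kinase domain. Its TSS regions were the narrowest and its H3K27ac sums the lowest among the receptor genes, but its fold over input, 3.13 to 9.26, was not always the lowest (9.26 in wound SG, against 7.93 for Pdgfra and 7.45 for Pdgfrb). The TSS region spanned 316 bp (MMTV WT) to 1161 bp (wound SG), wider than at most 10.6% of TSS regions in any list. H3K27ac summits numbered 0, 1 and 0 in WT, KI and SG MEF, 2 and 1 in MMTV WT and SG, and 1 and 2 in wound WT and SG. The sums were 8.56 in KI MEF, 22.6 and 16.1 in MMTV, and 5.85 and 28.4 in wound WT and SG, each from weak summits. No PRRX1 summit was listed in its window, and the nearest to its start was 212.5 kb away, in wound WT.

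Among the ligands, Pdgfa was marked in nearly every line. It encodes the A chain, a ligand of the alpha receptor. Its TSS region spanned 3796, 2619 and 3714 bp in WT, KI and SG MEF, 5781 and 5316 bp in MMTV WT and SG, and in wound WT and SG 3986 and 4567 bp. It was over 4 kb in both MMTV lines and wound SG, and 14 bp short of that in wound WT. 6330403L08Rik starts 19 bp from a Pdgfa start on the other strand, so the marks of the 2 promoters cannot be told apart. H3K27ac summits numbered 2, 0 and 5 in WT, KI and SG MEF, with sums of 60.7, 0 and 147.3. They numbered 6 in each MMTV line, with sums of 164.9 and 136.8, and 8 and 6 in wound WT and SG, with sums of 111.2 and 122.3. KI MEF is the lone list without a summit, and in that list the fold of the TSS region was also low (2.04, above 0.367% of TSS regions). A PRRX1 summit was listed in MMTV WT at 139456158 in intron 4 (−log10 p 5.80, rank 5264), 649 bp from an H3K27ac summit.

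Pdgfb, which encodes the B chain best known from endothelial cells and platelets, had H3K27ac sums of at most 41.3 and H3K4me3 of low fold. Its fold over input exceeded at most 7.86% of TSS regions in a list (wound WT). Its width where present exceeded 20.9% (wound WT) to 70.5% (wound SG) of them. The TSS region spanned 2343 bp in WT MEF and was absent in KI and SG MEF. It was absent in MMTV WT and spanned 2565 bp in SG, and it spanned 1359 and 3144 bp in wound WT and SG, with a separate region of 705 bp beside it in wound WT. Presence over the TSS here turned on a few bases: in MMTV WT a region of 2166 bp ended 45 bp short of the start, and in SG MEF a region of 862 bp ended 125 bp short. H3K27ac was listed in KI MEF (1 summit, sum 13.1) and in MMTV WT (3 summits, 31.8) and SG (4 summits, 41.3), and in none of the other lists. No PRRX1 summit lay in the window.

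Pdgfc encodes a ligand of the alpha receptor with a long first intron. Its TSS region was of middling width: 2355, 2122 and 3156 bp in WT, KI and SG MEF, 3930 and 3607 bp in MMTV WT and SG, and in wound WT and SG 2002 and 2546 bp. H3K27ac summits numbered 7, 5 and 9 in WT, KI and SG MEF, with sums of 117.5, 63.5 and 234.2. They numbered 8 and 16 in MMTV WT and SG, with sums of 164.4 and 320.8, and 2 and 9 in wound WT and SG, with sums of 44.6 and 177.2. The sum was therefore higher in each SG line than in its WT line. The cluster of summits at the gene ranked 1819 in MMTV WT and 494 in SG, which placed it among the 1149 super-enhancers of SG.

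Of the 21 Pdgfc sites 1 was listed in all 7 lists, in intron 1, 21.8 kb from the start. Its −log10 p was 21.7, 25.0 and 42.1 in WT, KI and SG MEF, 20.4 and 47.5 in MMTV WT and SG, and 20.2 and 50.1 in wound WT and SG. Relative to the median summit of the same list this was 1.18, 2.10 and 1.98 in MEF, 1.25 and 2.66 in MMTV and 1.33 and 3.08 in the wound lines. All 4 deleted lists thus lie above all 3 WT lists on both scales. The site was singled out after its values were seen, and with 1 list per group the difference was not tested. No PRRX1 summit was listed within 500 bp. The summits span 399 bp, and the middle 201 bases are shown, which hold neither TAATTA nor TGANTCA, the word of AP-1 factors:
Pdgfc intron 1 site, chr3:80862038-80862238, plus strand: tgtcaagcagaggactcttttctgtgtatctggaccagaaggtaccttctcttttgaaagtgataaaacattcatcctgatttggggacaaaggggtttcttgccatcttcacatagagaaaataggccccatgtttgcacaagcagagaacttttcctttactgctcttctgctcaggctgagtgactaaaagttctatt
The lone PRRX1 summit at Pdgfc was that of wound WT at 80914418 in intron 1 (−log10 p 4.58, rank 4494 of 5698), 52278 bp from the nearest H3K27ac summit. Its window holds TAATTA, in capitals:
Pdgfc intron 1, chr3:80914368-80914468, plus strand: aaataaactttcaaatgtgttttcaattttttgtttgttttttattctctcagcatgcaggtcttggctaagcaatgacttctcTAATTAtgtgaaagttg

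Pdgfd, a ligand of the beta receptor, had the widest range of H3K27ac sums in the family. Its TSS region spanned 1455 bp in WT MEF, 1885 bp in MMTV WT and 1296 bp in wound WT. It was absent in KI MEF, SG MEF and MMTV SG and spanned 373 bp in wound SG, where a second region of 336 bp lay beside it, so that the window held 709 bp against the 1296 bp of wound WT. The region over the TSS was thus narrower or missing in all 4 deleted lists, and its fold where present was 3.74 to 4.77. H3K27ac summits numbered 4, 1 and 0 in WT, KI and SG MEF, with sums of 52.2, 14.2 and 0. They numbered 20 and 0 in MMTV WT and SG, with a sum of 578.8 in WT, and 2 and 4 in wound WT and SG, with sums of 15.8 and 35.8. The sum was thus lower in the deleted lines of MEF and MMTV, and in the wound lines it was higher in SG.

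The MMTV WT values of Pdgfd belong to a stretch of chromosome 9 in which all 3 marks were listed densely. Its bounds, 6300001 to 8500000, were set from the 100-kb bins in which the MMTV WT lists were dense, so the excess of MMTV WT inside them follows from that choice and the values are a description. The stretch begins 131.3 kb inside Pdgfd and runs on through the Mmp gene cluster, Birc2, Birc3 and Yap1. It is 0.0834% of the genome, but it held 187 (2.34%) of the PRRX1 summits of MMTV, 28.0 times the genome average, against 1 in MEF and 5 in wound WT. Dense PRRX1 bins also occurred elsewhere. Among the 5 densest 500-kb bins of MMTV, the 3 on chromosome 9 held 73, 41 and 30 summits and the other two, on chromosome 6 from 17000001 and from 37000001, held 34 and 32. The densest bin held 23 summits in MEF and 22 in wound WT, both on chromosome 8. The chromosome 9 stretch held 210 H3K27ac summits in MMTV WT and 25 in SG, 4.67 and 0.487 times the average, and 20 to 42 in the other 5 lists. H3K4me3 regions numbered 70 in WT and 14 in SG, with a median fold of 1.75 in WT, below the 3.58 of the whole list, and 7.62 in SG. In the 3 Mb before the stretch the MMTV H3K27ac lists held 16 (WT) and 18 (SG) summits, and in the 3 Mb after it 24 and 21. Of the 21 protein-coding genes that start in the stretch, 15 had a higher H3K27ac sum in WT than in SG and 0 a lower one.

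All 20 H3K27ac summits and all 7 PRRX1 summits of Pdgfd in MMTV WT lay inside this stretch. The TSS lies outside it. The lists hold no read depth, and the inputs were not analysed here, so the part that copy number or input coverage of the stretch has in the MMTV values of Pdgfd was not tested. Without MMTV, the H3K27ac sum of Pdgfd was between 0 and 52.2 in the 5 other lists.

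**Figure D3:**
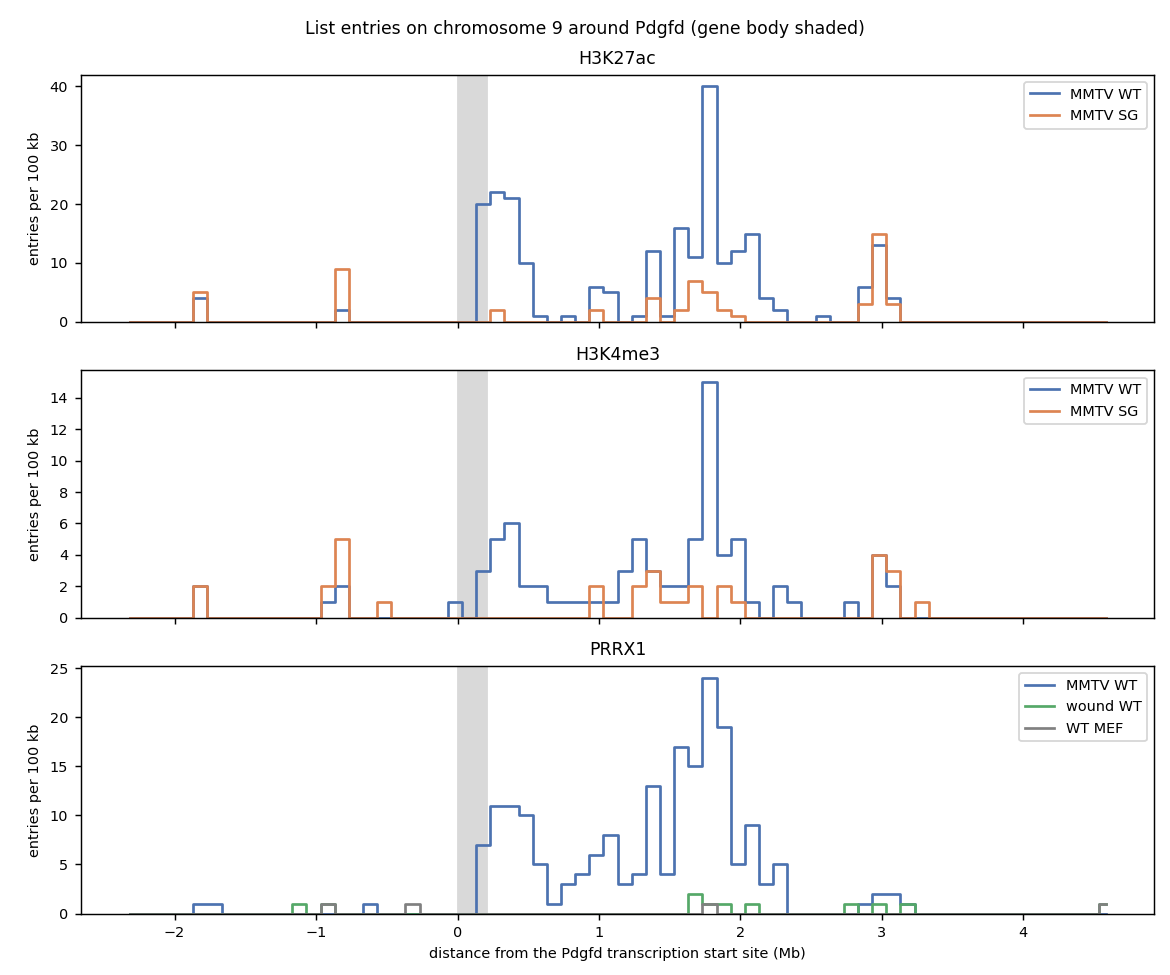
Entries per 100 kb on chromosome 9 against distance from the Pdgfd TSS in Mb (grey, the gene body) for H3K27ac, H3K4me3 and PRRX1. The MMTV WT line rises within Pdgfd and falls back 2.2 Mb further on, while MMTV SG and the PRRX1 lists of the other types show no such block.

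An element of Pdgfd was nevertheless shared with lines in which the stretch is not dense. The site in intron 3, 136.9 kb from the start, was listed in WT MEF (−log10 p 18.5), KI MEF (14.2), MMTV WT (144.6), wound WT (6.82) and wound SG (10.6), within 190 bp. It was absent in SG MEF and MMTV SG. The 201 bases around it are shown as the element common to 5 lists:
Pdgfd intron 3 site, chr9:6305388-6305588, plus strand: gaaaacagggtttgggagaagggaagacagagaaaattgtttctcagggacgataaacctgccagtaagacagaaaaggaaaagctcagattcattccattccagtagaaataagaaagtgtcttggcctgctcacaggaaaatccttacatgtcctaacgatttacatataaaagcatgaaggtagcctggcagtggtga
PRRX1 summits of MMTV lay at 7 places of the gene, with −log10 p of 4.24 to 20.1 and ranks of 332 to 7371. The strongest, in intron 3, and the 1 of the 7 with a TAATTA within 50 bp, in intron 6, are shown, with that word in capitals:
Pdgfd intron 3, chr9:6331606-6331706, plus strand, −log10 p 20.1: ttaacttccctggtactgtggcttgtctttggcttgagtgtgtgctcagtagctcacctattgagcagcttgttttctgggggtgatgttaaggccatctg
Pdgfd intron 6, chr9:6373719-6373819, plus strand, −log10 p 9.84: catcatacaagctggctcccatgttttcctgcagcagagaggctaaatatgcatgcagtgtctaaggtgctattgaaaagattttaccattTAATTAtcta
The strongest lay 1201 bp from an H3K27ac summit, and none of the 7 lay within 500 kb of a PRRX1 summit of MEF or wound WT.

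**Figure D4:**
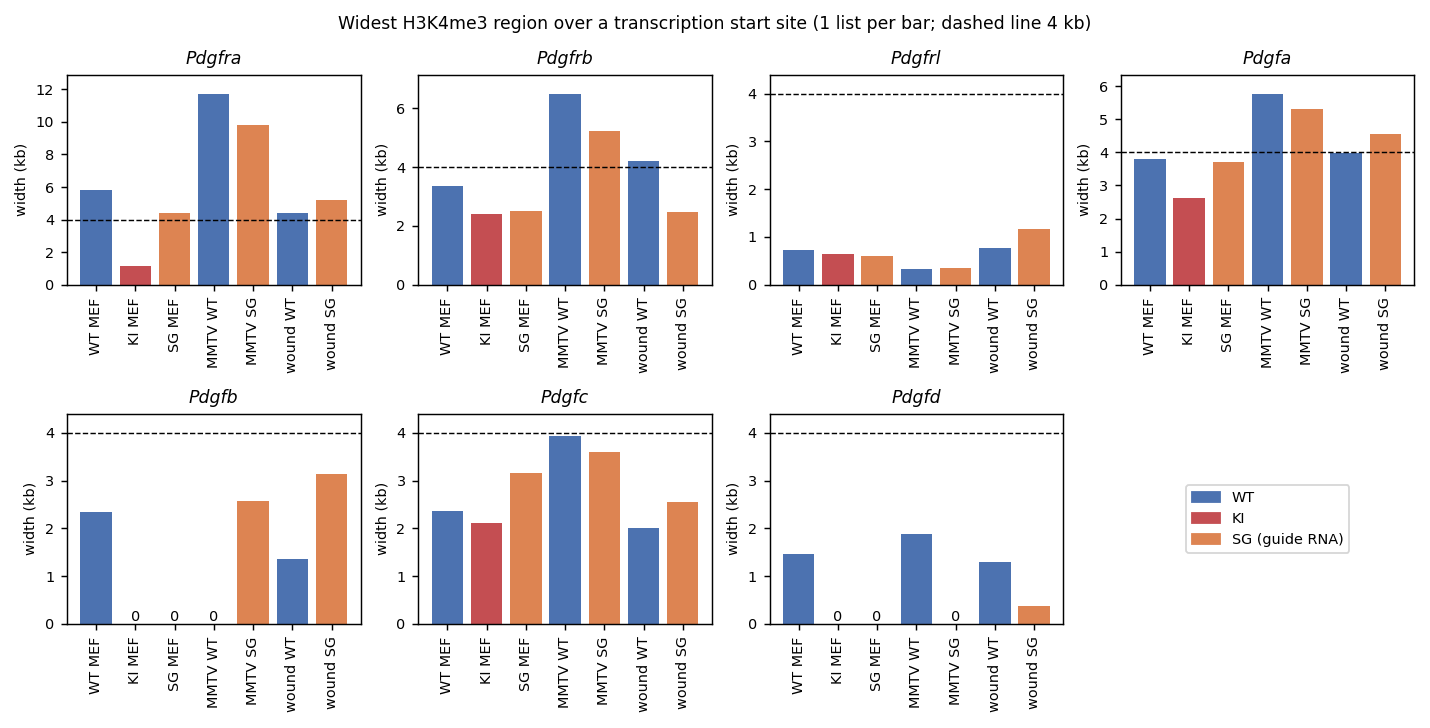
Width in kb of the widest H3K4me3 region over a TSS (vertical axis, linear from 0, a scale of its own for each gene), 1 bar per list, with a dashed line at 4 kb. Pdgfra crosses the line in 6 of 7 lists, and 0 marks the lists without a TSS region for Pdgfb and Pdgfd.

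The study asked what deletion of Prrx1 changes in these cells, and the family was compared between deleted and WT lines of each type. Because lists differ in strength, each gene's log2 ratio was taken relative to the median gene. That median ratio of summed H3K27ac was 0.312 in KI MEF, 1.41 in SG MEF, 1.18 in MMTV SG and 1.503 in wound SG, and for H3K4me3 width it was 0.797, 0.938, 0.963 and 1.13. A gene was called at 2-fold for H3K27ac, if its sum reached 20 in a list of the pair, and at 1.5-fold for width, and a gene listed in only 1 of the 2 lists was called. A gene that reached the sum of 20 through 1 list alone tended to be called by that filter, so the counts are a description and support nothing about the family. The KI and SG MEF comparisons share the WT MEF list.

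The members called for H3K27ac differed between the comparisons. In KI MEF, 1 of 5 tested members was lower (Pdgfa, listed in WT alone) and 0 higher, against 22.4% and 9.39% of all genes tested. In SG MEF 1 of 5 was lower (Pdgfd, listed in WT alone) and 0 higher, against 5.62% and 6.25%. In MMTV SG 1 of 7 was lower (Pdgfd again) and 0 higher, against 5.73% and 10.1%. The Pdgfd summits of MMTV WT all lay in the dense stretch of chromosome 9. In wound SG 1 of 6 was lower and 2 higher, against 4.13% and 9.82%. The lower gene there was Pdgfrb, with 4.42-fold less than WT relative to the median gene. Some fibroblast markers also had lower values in that comparison. For H3K27ac, 2 of 7 tested were lower (Col1a2, with sums of 282.9 and 56.1, and Acta2, with 71.3 and 27.4) and 0 higher. For H3K4me3, 4 of 6 were narrower or lost and 0 wider, against 5.44% and 9.05% of genes tested. The counts of markers lower and higher for H3K27ac were 1 and 1 of 8 in KI MEF, 2 and 0 of 8 in SG MEF and 3 and 0 of 9 in MMTV SG. Of 3 pericyte markers tested in wound SG, 1 was lower for H3K27ac (Cspg4, 94.2 to 39.0) and 1 higher (Rgs5, 8.72 to 36.9), and the TSS region of Cspg4 spanned 2930 bp in WT and 726 bp in SG. The part of these shifts in the Pdgfrb value was not tested. The higher members of wound SG were Pdgfc (2.65-fold) and Pdgfrl (3.23-fold, from 1 summit to 2). Pdgfrl was tested only because its sum in SG, 28.4, passed the minimum, which its sum in WT, 5.85, did not. The median over the members with a value in both lists was −0.05, 0.07, −0.21 and 0.07 in log2 relative to the median gene, in KI MEF, SG MEF, MMTV SG and wound SG, and its sign depended on the processing in all but SG MEF.

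The values of the wound Pdgfrb and the Pdgfc comparisons kept their direction in nearly all settings. The log2 ratio of Pdgfrb in wound SG was −2.14 and ranged from −2.76 to −1.46 over 7 settings, which included no scaling, gene body only and lists of equal size. For Pdgfc it was 0.79 in KI MEF, 0.50 in SG MEF, 0.72 in MMTV SG and 1.40 in wound SG, above 0 in 7 of 7 settings in each SG line and in 5 of 7 in KI MEF, where it was −0.89 without scaling. Pdgfrb in MMTV SG was at −0.25, and without scaling at −0.01. For the alpha receptor gene the values were −0.79 (KI MEF), −0.35 (SG MEF), −0.18 (MMTV SG) and −0.44 (wound SG), and without scaling the last 3 were 0.14, 0.06 and 0.15.

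**Figure D5:**
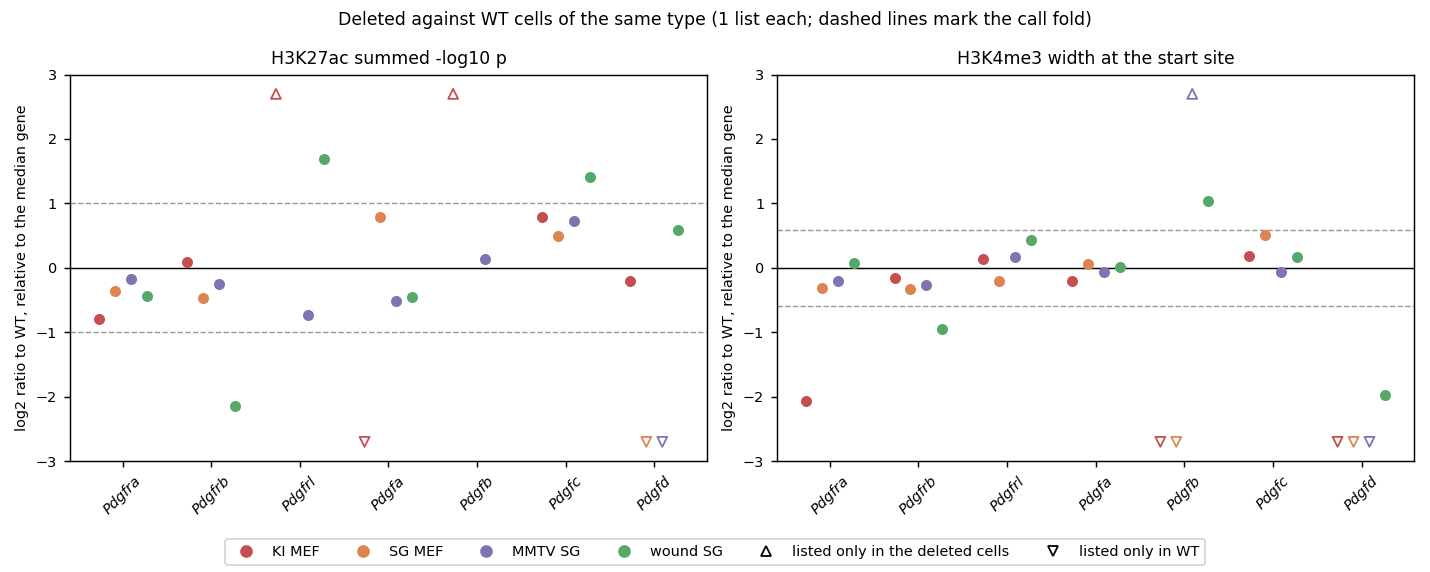
Log2 ratio of deleted to WT (vertical axis) relative to the median gene for each family member, left for summed H3K27ac and right for H3K4me3 width, with 1 colour per deleted line and dashed lines at the call folds. Open triangles stand for genes listed in 1 of the 2 lists, without a ratio. Wound SG at Pdgfrb (−2.14) and Pdgfc (1.40) lie on opposite sides at H3K27ac, and KI MEF at Pdgfra (−2.06) is low at H3K4me3.

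For H3K4me3 width, 3 of 7 members were narrower or lost in KI MEF and 0 wider, against 31.1% and 1.89% of genes tested. These were Pdgfra, at 4.17-fold less relative to the median gene, Pdgfb and Pdgfd. In SG MEF 2 of 7 had no region over the TSS where WT had one (Pdgfb and Pdgfd) and 0 were wider, against 7.59% and 1.65%, although Pdgfb had regions of 616 and 862 bp beside the TSS in SG. In MMTV SG Pdgfd had no region over the TSS where WT had one, and Pdgfb was called as wider because the WT region of 2166 bp ended 45 bp short of the TSS and so counted as 0, against 7.09% and 8.81%. In wound SG 2 were narrower (Pdgfrb 1.93-fold and Pdgfd 3.94-fold) and 1 wider (Pdgfb 2.04-fold), against 5.44% and 9.05%. The folds count the region over the TSS alone. In wound fibroblasts Pdgfrb, Pdgfd and Pdgfb each had a region that was split in one list and not in the other. With the pieces added up, Pdgfd had 1296 bp in WT and 709 bp in SG. Pdgfb had 2064 bp in WT (705 and 1359 bp) and 3144 bp in SG. All regions in the Pdgfrb window together covered 4467 bp in WT and 3943 bp in SG, less than 1.5-fold apart. In KI MEF the Pdgfra region was split too, and its window held 2896 bp in all, against 5822 bp in WT. Each of these differences is smaller than by the region over the TSS. The share in KI MEF is thus near the background, and Pdgfd alone was called narrower or lost in all 4 comparisons. Every Pdgfd region had a −log10 p below 10 (5.85 to 9.23), so a minimum of 10 ends all 4 of these calls. All 3 calls in wound SG turned their direction when fold over input took the place of width, with log2 ratios of 0.02 for Pdgfrb, 0.18 for Pdgfd and −0.16 for Pdgfb. The median over the members was −0.16, −0.20, −0.07 and 0.07 in log2.

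The WT lines of the 3 types were set side by side with the same measures. The order of the types differed between members and between marks. Of 7 members 6 had a 2-fold or more lower H3K27ac sum in MEF than in MMTV, against 9.71% of genes tested, and 0 were higher, against 9.87%. Pdgfb and Pdgfrl reached the minimum sum through MMTV alone, so their calls were fixed by the filter. Pdgfc was not called (1.12-fold). Pdgfra was 5.01-fold, Pdgfrb 2.38-fold, Pdgfa 2.18-fold and Pdgfd 8.88-fold lower relative to the median gene, and Pdgfb and Pdgfrl had no summit in WT MEF. Against wound WT, 5 of 7 were 2-fold or more higher in MMTV and 0 lower, against 13.4% and 6.08% of genes. These were Pdgfra (2.84-fold), Pdgfc (2.003-fold), Pdgfd (19.9-fold), Pdgfrl (2.10-fold) and Pdgfb, which was not listed in wound WT. Of these, Pdgfb, Pdgfd and Pdgfrl reached the minimum sum through MMTV alone. In both comparisons with MMTV, the Pdgfd value rests on summits that all lay in the dense stretch of chromosome 9. Copy number and input coverage of that stretch were not examined. Pdgfrb (1.84-fold higher in MMTV) and Pdgfa (1.24-fold lower) were not called. Between MEF and wound WT, 1 of 5 was lower in MEF (Pdgfa, 2.67-fold) and 1 higher (Pdgfd, 2.26-fold), against 5.04% and 13.1%. Here Pdgfd reached the minimum sum through MEF alone. MMTV also differ from both others in strain and tissue, which cannot be told apart from the cell type.

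For H3K4me3 width, MEF against MMTV gave 1 of 7 narrower in MEF (Pdgfra, 1.53-fold) and 2 wider (Pdgfb and Pdgfrl), against 12.1% and 10.4% of genes. MMTV against wound WT gave 2 narrower in MMTV (Pdgfb and Pdgfrl) and 1 wider (Pdgfra, 1.94-fold), against 13.3% and 11.8%. MEF against wound WT gave 0 narrower and 1 wider (Pdgfb, 1.65-fold), against 9.72% and 6.9%. The Pdgfb calls count the region over the TSS alone. In MMTV WT a Pdgfb region of 2166 bp ended short of the TSS and counted as 0, and in wound WT the region was split. All regions in the Pdgfb window together covered 2343 bp in WT MEF, 3091 bp in MMTV WT and 2064 bp in wound WT. By that measure Pdgfb was not narrower in MMTV WT, and WT MEF and wound WT were less than 1.5-fold apart.

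TSS regions over 4 kb were found in WT MEF at 1 member (5.02% of all genes), in KI MEF at 0 (1.49%) and in SG MEF at 1 (3.59%). In MMTV WT and SG they were at 3 members each (15.1% and 12.8%), and in wound WT and SG at 2 each (4.83% and 8.58%). The genes were drawn from Pdgfra, Pdgfrb and Pdgfa. Super-enhancers overlapped a member in 7 of 49 combinations: Pdgfra, Pdgfrb and Pdgfd in MMTV WT, Pdgfra, Pdgfrb and Pdgfc in MMTV SG, and Pdgfrb in wound WT. Across all genes the share was 10.8%, 10.5% and 7.39% in these lists. The Pdgfd cluster of MMTV WT lay in the dense stretch of chromosome 9. No member had one in WT, KI or SG MEF or in wound SG, where 10.4%, 4.06%, 11.4% and 11.9% of genes did. In MMTV, Pdgfrb ranked 138 of 18506 clusters in WT and 223 of 19061 in SG, and Pdgfra 545 and 654.

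PRRX1 summits lay in the window of 0 of 7 members in MEF, 4 in MMTV and 2 in wound WT, against 7.03%, 22.1% and 16.8% of all genes. The 4 in MMTV were Pdgfra, Pdgfrb, Pdgfa and Pdgfd, and the 2 in wound WT were Pdgfrb and Pdgfc. Outside Pdgfd, the windows held 5 summits in MMTV. How specific these summits are was not tested, since no PRRX1 list of a deleted line was used here.

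Pooled over the family, merged H3K27ac sites numbered 107, of which 2 were present in all 7 lists, at Pdgfrb (26.2 kb) and Pdgfc (21.8 kb), and 59 in a single list. Of the WT sites, 8 of 21 were kept in KI MEF, 12 of 21 in SG MEF, 31 of 65 in MMTV SG and 13 of 26 in wound SG. Pdgfd accounts for 20 of the MMTV WT sites, and outside it 31 of 45 were kept. The share of sites kept over all genes was not computed, so these counts show nothing particular to the family. The site counts depend on the strength of each list.

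The genes whose H3K27ac sums followed a member most closely over the 7 lists were named by the root-mean-square difference of log2(sum + 1), after centring each list and gene, among 13687 candidates with a summit in 4 or more lists. They were Cst3 (0.265) and Pxmp4 (0.272) for Pdgfrb, Prss57 (0.217) and Acta1 (0.256) for Pdgfa, and Bub1b (0.182) and Mypop (0.210) for Pdgfc. For Pdgfd the closest, Rasgrf2 (1.37) and Ankrd22 (1.54), were far off. For Pdgfrl they were Plb1 (0.431) and Myt1 (0.544). The likeness rests on 7 lists that share their depth across genes and describes these lists only.

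Other genes of the pathway were described by list. Of 11 related receptors and ligands, H3K4me3 covered a TSS of 6 to 8 per list, and Kit, the receptor gene next to Pdgfra on chromosome 5, and Csf1r were at 0 throughout. Of all genes, 41.4% (KI MEF) to 55.2% (wound SG) had a TSS region. The widest in a WT list were Vegfa (10079 bp in MMTV WT) and Kdr (5528 bp in wound WT). For H3K27ac, 2 of 6 were lower and 1 higher in KI MEF, 1 and 1 of 7 in SG MEF, 1 and 1 of 7 in MMTV SG, and 0 and 3 of 9 in wound SG, by the same calls. Over all genes tested, 22.4% were lower and 9.39% higher in KI MEF, and 5.62% and 6.25% in SG MEF. In MMTV SG the shares were 5.73% and 10.1%, and in wound SG 4.13% and 9.82%. Of 8 genes of ligand processing and binding, 7 to 8 were marked per list, with the widest regions of the WT lists at Thbs1 (11114 bp in wound WT), whose product binds many growth factors, and Sparc (9507 bp in MMTV WT), a matrix protein that binds PDGF. Of these 8, 0 were lower and 1 higher in KI MEF, 2 and 0 in SG MEF, 0 and 0 in MMTV SG and 2 and 0 in wound SG.

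The intracellular part of the pathway was marked in all lines, where 41.4% (KI MEF) to 55.2% (wound SG) of all genes had a TSS region. Of 17 adaptors and enzymes downstream of the receptors, 16 (KI MEF, which lacked Cbl) or 17 had a TSS region, with the widest of the WT lists at Shc1 (10504 bp in MMTV WT), an adaptor of receptor tyrosine kinases, and Pik3r2 (6144 bp). For H3K27ac, 6 of 17 were lower and 3 higher in KI MEF, 0 and 1 in SG MEF, and 0 and 0 in MMTV SG and wound SG. Of 8 immediate-early genes, which growth factors induce within minutes, 5 had a TSS region in KI MEF and 8 in every other list, with the widest of the WT lists at Myc (8542 bp in MMTV) and Ier2 (6237 bp in wound). For H3K27ac, 2 of 8 were lower and 1 higher in KI MEF, 0 and 1 in SG MEF, 0 and 0 in MMTV SG and 0 and 1 in wound SG. Over all genes tested, the shares lower and higher were 22.4% and 9.39% in KI MEF and 5.62% and 6.25% in SG MEF. They were 5.73% and 10.1% in MMTV SG and 4.13% and 9.82% in wound SG.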

How the data were processed

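Alignment was to mm9 by Bowtie, after trimming by Trimmomatic and before duplicate removal by Picard, per the study's methods, and the authors ran MACS2 with the corresponding input as control. For PRRX1 the methods also name IgG as a control, and how it entered the lists is not given in the sources used here. H3K27ac and PRRX1 were deposited as 1-bp summits, each with a −log10 p-value. For H3K4me3 the authors deposited broad regions, each with its fold (a ratio over input), −log10 p-value and −log10 q-value. PRRX1 lists reach down to a −log10 p of 3.00, below the 5 that the threshold stated in the methods for sharp peaks implies, so some summits described here lie under that threshold, and whether duplicate PRRX1 libraries were pooled is not given in the sources used here. The lists give no read counts, so the depth is unknown and no interval can be given.

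Genes came from GENCODE vM1 (NCBIM37, the same build as mm9). Windows were the gene body with 10 kb on each side. With 1 list per group no test was possible, and ratios relative to the median protein-coding gene were called at 2-fold (H3K27ac, sum of at least 20 in a list) or 1.5-fold (width). Summits within 500 bp were merged into sites, and clusters were stitched within 12.5 kb and cut at the tangent. All members were named. Alternatives changed the window, the minimum −log10 p, list size, scaling, stitching and measure. Leaving out Pdgfd or the MMTV lists was chosen after seeing the data. The members and gene lists were chosen with earlier results of these data known. Inputs were not analysed here, and some results are not reported here. Python 3.11.15, numpy 2.4.6 and matplotlib 3.10.9 were used, and the scripts were tested on simulated data.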

Additional observations from a re-analysis of the deposited data

Results flagged for a closer look

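The width of the Pdgfb region called over the TSS differed in direction between fibroblast types. Its width in the deleted line minus WT was −2343 bp in KI MEF and −2343 bp in SG MEF, which share the WT MEF list, against 2565 bp in MMTV SG and 1785 bp in wound SG. With 1 list per group this difference between types was not tested, and in MMTV WT a region of 2166 bp stopped short of the start. In wound WT a separate region of 705 bp lay beside the TSS region, which makes 2064 bp against 3144 bp in SG. The MEF and wound values end with a minimum −log10 p of 10, since the regions had 8.73 in WT MEF and 8.07 and 6.21 in wound WT and SG. By fold over input the wound log2 ratio relative to the median gene was −0.16, and in SG MEF a region of 862 bp ended 125 bp short of the start.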

How the results depend on the processing

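Over 14 results and 83 alternatives, 63 kept their value within the bounds set, 10 moved and 10 turned their sign. The members' median log2 H3K27ac ratio in KI MEF (−0.05) became 0.095 with 50 kb on each side, 0.13 with −log10 p of at least 10, 0.30 with lists of equal size and 0.096 without Pdgfd, and −0.74 by number of summits and −1.73 without scaling. In MMTV SG (−0.21) it became 0.16 by number of summits and 0.028 without scaling. In wound SG (0.07) it became −0.26, −0.59 and −0.50 with 50 kb, −log10 p of at least 10 and equal sizes, −0.44 without Pdgfd and 0.66 without scaling. Members with PRRX1 fell to 2 in MMTV at −log10 p of at least 10, and to 1 in wound WT at 5 or 10 or with equal sizes. Super-enhancer combinations were 4 with the 500 top clusters. Without the MMTV lists, super-enhancer combinations were 1 and TSS regions over 4 kb were 6. The cause was not tested. No paired analysis was possible because each group has 1 list and no result comes from a test. Depth is unknown, so an absent summit was not detectable in that list rather than shown to be missing from the cells.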
